A study of Mus musculus with 146 samples.

Results

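Kit, Foxo3, Pik3ca, Pdpk1, Akt1, Tsc1, Tsc2, Mtor and Cdkn1b are 9 genes of the pathway that links the Kit receptor to the dormancy of oocytes. The rule that lists them is by name and uses no measured value, though it was set with earlier results of these data known. All 9 were among the 19779 coding genes with a value in each cell. Their levels were read in every cell of 146 libraries that held at least 1 TPM of Ddx4, the germ cell RNA helicase also called Vasa, which left out 1 cell. TPM is the number of transcript copies of a gene among 1000000 copies of all genes, as estimated from reads and transcript lengths, so a comparison of levels between genes depends on those lengths.

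In the ovary, the cells around an oocyte make Kit ligand, which binds the receptor tyrosine kinase Kit on the oocyte surface. Kit recruits PI3K, whose product at the membrane brings Pdpk1 and Akt together, and active Akt phosphorylates Foxo3, which then leaves the nucleus. Foxo3 in the nucleus and the cell cycle inhibitor Cdkn1b (p27) hold primordial follicles dormant, while Mtor, which Tsc1 and Tsc2 restrain, promotes growth of the oocyte. Most of these steps are changes in phosphorylation and place of proteins, and the RNA levels given here measure neither.

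Every cell came from C57/BL6J newborn female mice of 1 litter, with a labelled age of D0.5, and the labels give no treatment or genetic change. The 5 ovaries were digested together, germ cells were picked by mouth pipette, and Smart-seq2 libraries of polyadenylated RNA with ERCC spike-ins were made from single cells. The picked cells were checked by PCR for Vasa and against Foxl2, a pregranulosa cell gene. The labels name no animal for any cell, so the cells are 1 sample, no difference between groups of cells could be tested, and 1.5-fold (0.58 on the log2 scale) is the size from which a gene is called higher or lower.

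Of the 146 libraries, 7 pairs agreed far more closely than any other pair. Pearson's r of log2(reads + 1) over genes was 0.980 to 0.994 within these pairs, against at most 0.869 and a median of 0.721 for the other pairs. The chi-square per gene between both libraries of such a pair was 1.88 to 4.97, against at least 154 in the 500 closest other pairs. The second libraries of these pairs were numbers 140 to 146, and their partners were earlier libraries such as 45 and 46. All lie in cluster 2 below. Each pair was counted as 1 cell with the mean of its values, and values with each library counted separately are given where they change a call. One further cell, number 29, had no Ddx4 read and was left out.

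Between 1408459 and 26855273 reads per library were assigned to genes, with a median of 9487369. Cells were grouped by 19 stage genes, 18 of them among those the study's text gives for its clustering, with the 9 genes kept out, into clusters of 19, 80 and 39 cells that are called by number. Sycp2, of the meiotic chromosome axis, had means of 495, 174 and 67.97 TPM in these clusters in turn, and Zp3, of the egg coat, had 0.094, 7.49 and 491 TPM. Both genes are among the 19 stage genes, so the grouping itself used their levels and these means serve only to describe the clusters. By them, cluster 1 lies at the meiotic end and cluster 3 at the end with egg coat genes. All 8 listed germ cell markers had a mean of at least 1 TPM, and their sum was at least 994 TPM in each cell. Ddx4 is 1 of the 8, and its level was bounded by the choice of cells. Of 12 pregranulosa markers, 3 had a mean of at least 1 TPM, and Foxl2 reached 1 TPM in 4 cells. In 11 cells the blood markers, mostly globin, summed to at least 10000 TPM. Medians in clusters 2 and 3 were 8897.5 and 10579 genes detected, 12207 and 7460 spike-in TPM, and 6.04% and 8.11% mitochondrial reads. Between these clusters, 17.6% of the 11756 coding genes with a mean of at least 1 TPM were higher and 29% lower. All 5 tested stroma markers were lower. Of the 8 germ cell markers 7 were lower and 1 higher, and of 5 tested blood markers 4 were higher and 0 lower. The part of these in the differences below was not tested.

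The genes lie on different chromosomes of mm10 (GRCm38), except Pdpk1 and Tsc2. Kit spans chr5:75574916-75656722 on the plus strand, Foxo3 chr10:42181841-42276755 on the minus strand and Cdkn1b chr6:134920401-134925513 on the plus strand. Pik3ca lies at chr3:32397671-32468486, Tsc1 at chr2:28641228-28691167 and Mtor at chr4:148448611-148557683, all plus. Pdpk1 at chr17:24073680-24150924, Tsc2 at chr17:24595816-24632630 and Akt1 at chr12:112653821-112674884 are on the minus strand. Tsc2 overlaps Pkd1, which lies on the other strand with a mean of 28.3 TPM, and the kit does not mark strand, so reads of the overlap cannot be told apart. The promoters below, from RefSeq on GRCm38.p6, are those of Foxo3 and Cdkn1b, which had the largest differences between clusters, and of Kit, the receptor. Capitals mark GGGCGG on either strand, the core of the GC box, and each run ends at the base before the gene start of GENCODE M21.
Kit, chr5:75574737-75574915, plus strand: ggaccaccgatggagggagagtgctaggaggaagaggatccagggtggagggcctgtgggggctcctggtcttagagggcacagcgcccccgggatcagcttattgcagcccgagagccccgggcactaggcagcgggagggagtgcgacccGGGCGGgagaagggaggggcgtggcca
Foxo3, chr10:42276756-42276945, minus strand: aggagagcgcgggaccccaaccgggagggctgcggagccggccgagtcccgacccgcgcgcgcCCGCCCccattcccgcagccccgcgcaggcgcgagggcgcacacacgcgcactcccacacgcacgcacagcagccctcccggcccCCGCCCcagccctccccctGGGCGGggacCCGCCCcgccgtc
Cdkn1b, chr6:134920151-134920400, plus strand: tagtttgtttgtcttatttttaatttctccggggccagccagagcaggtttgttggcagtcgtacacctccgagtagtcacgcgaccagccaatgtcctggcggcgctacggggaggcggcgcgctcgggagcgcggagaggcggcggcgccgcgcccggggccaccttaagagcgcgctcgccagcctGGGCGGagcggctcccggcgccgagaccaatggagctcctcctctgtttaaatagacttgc

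The stretches printed for Kit and Cdkn1b hold 1 copy of GGGCGG each and that of Foxo3 holds 4. Their GC content is 69.3%, 64.4% and 81.6%. Over the full 250 bases before the RefSeq start it is 70.8%, 64.4% and 76.4%, with 5 copies of GGGCGG for Foxo3. The median over such windows in 32536 RefSeq promoters is 52.4%. GGGCGG occurs in 33% of those windows. The E-box CANNTG, bound by Figla and Sohlh1, occurs in 66.2% of all windows and in none of these 3. The Foxo motif GTAAACA was in 3.17% of all windows and, of the 9 genes, in that of Akt1 alone. Both strands were searched, and a match is a run of letters, not a bound site.

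Kit had the highest level of the 9 genes, with a mean of 168 TPM over all cells, a median of 153 and a range from 0 to 634. Foxo3 followed with a mean of 74.4 TPM and a median of 62.7. Pdpk1 (48.1), Mtor (39.05), Tsc2 (38.7) and Tsc1 (36.4) had means close to each other. Akt1 (14.5), Pik3ca (7.32) and Cdkn1b (6.30) were lowest. Among 11756 coding genes with a mean of at least 1 TPM, 92.6% had a lower mean than Kit and 27.9% a lower mean than Cdkn1b.

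Neighbours in this order were compared within each cell. Foxo3 was above Kit in 34 cells and equal in 1, and below it in all others. Foxo3 was above Pdpk1 in 84 cells and Tsc1 above Akt1 in 97. Mtor and Tsc2 could not be placed, since Mtor was higher in 68 cells and Tsc2 in 69. Tsc2 was above Tsc1 in 72 cells and below it in 64. The order below Kit also depends on transcript length. With reads divided by the longest coding transcript of each gene, Kit stayed highest, at 89.9 reads per kilobase among 1000000 reads. By means on that scale Tsc1 (13.3) was above Foxo3 (13.05), and Pik3ca (3.06) and Cdkn1b (3.06) were alike. By medians Foxo3 (10.9) was above Tsc1 (9.65), and Pik3ca (1.66) was above Cdkn1b (0.073).

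The cells differed widely. The coefficient of variation was 0.77 for Kit and 0.95 for Foxo3, against a median of 1.49 over the 11756 genes. Only Pik3ca (1.59) and Cdkn1b (1.82) lay above that median. The share of cells with at least 1 TPM was 95.7% for Kit (95% exact interval 90.8 to 98.4%), 89.9% for Foxo3 (83.6 to 94.3%) and 44.2% for Cdkn1b (35.8 to 52.9%). The intervals cover counting error only. At this limit 18 cells had all 9 genes, and the 2 cells with the fewest had 2. The number of these genes per cell correlated with the number of all genes detected (Spearman's rho 0.64 over all cells) and with spike-in TPM (-0.57), values that share the library of each cell.

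**Figure D1:**
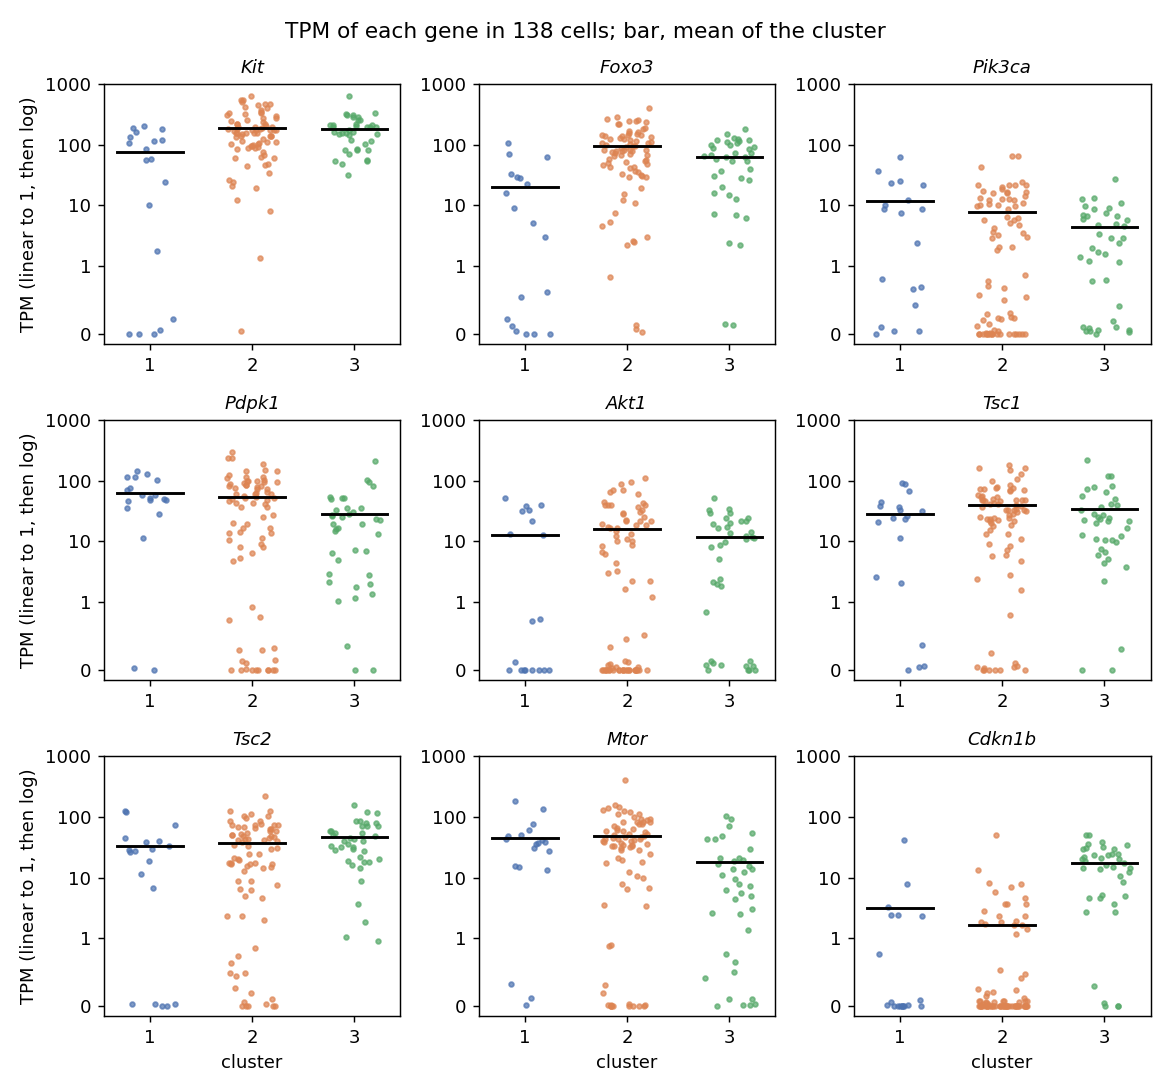
TPM of the 9 genes in each cell (points) by cluster (1, 2 and 3, with 19, 80 and 39 cells), on an axis that is linear up to 1 TPM and logarithmic above, with a bar at the cluster mean. Kit and Foxo3 are low or absent in part of cluster 1, Mtor sits lower in cluster 3, and Cdkn1b is near 0 in most cells outside cluster 3.

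Kit, the receptor at the head of the pathway, was higher in clusters 2 and 3 than in cluster 1. Kit TPM ran from 0 through a median of 58.05 to 201 in cluster 1, from 0.045 through 156 to 630.0 in cluster 2, and from 31.96 through 161 to 634 in cluster 3. The clusters overlap, but the low end differs: 5 of 19 cells in cluster 1 and 1 of 80 in cluster 2 were below 1 TPM, and none of 39 in cluster 3. The means were 75.3, 185 and 180 TPM. The log2 ratio of cluster 2 over cluster 1 was 1.28, and lay between 1.21 and 1.42 with any single cell left out, and it was 1.97 in CPM (reads of a gene among 1000000 reads). Between clusters 2 and 3 the ratio was -0.04. In cluster 2, 68 of 80 cells were above the median of cluster 1. With TPM divided by spike-in TPM, the ratio of cluster 3 over cluster 2 became 0.62.

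Kit ligand, which the cells around the oocyte make, was at 1 TPM or more in 7 cells, with a mean of 1.07 TPM for Kitl. The first-step ratio of Kitl (1.21) was 0.43 without the cell with the highest level, 81.1 TPM, and -0.89 with clusters from variable genes. Mast cells also carry Kit. Of their 8 markers, Fcer1a was at 0 in every cell, Cpa3 did not reach 1 TPM in any, and Gata2 alone had a mean of at least 1 TPM (5.16). Gata2 had means of 14.4, 5.22 and 0.51 TPM in the clusters. Hdc, found in 8 cells at 1 TPM or more and up to 50.2 TPM, had means of 0.068, 1.55 and 0.18 TPM and so was highest in cluster 2, as Kit was. The summed markers had medians of 7.38, 0.12 and 0.096 TPM, and the part of such cells in the level of Kit was not tested. Among other receptors of the same class, Fgfr1 rose in both steps, with means of 12.2, 34.7 and 72.97 TPM and a first ratio of 1.44 that was 0.61 with clusters from variable genes. Igf1r, the IGF receptor, went from 9.004 to 19.5 TPM between clusters 1 and 2 (1.03), and Insr, the insulin receptor, fell from 21.9 to 11.8 TPM between clusters 2 and 3 (-0.83). The ratio of Insr was short of 1.5-fold per spike-in (-0.46) and with clusters from variable genes (-0.40).

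Foxo3, the forkhead factor that keeps follicles dormant, had the largest ratio of the 9 genes between clusters 1 and 2. Levels of Foxo3 ran from 0 through a median of 5.20 to 105.8 in cluster 1, from 0.025 through 78.9 to 404 in cluster 2, and from 0.14 through 62.1 to 180.4 in cluster 3. In cluster 2, 71 of 80 cells were above the median of cluster 1 and 29 were above its highest cell. Shares of cells with at least 1 TPM were 57.9% in cluster 1 (exact interval 33.5 to 79.7%), 95% in cluster 2 (87.7 to 98.6%) and 94.9% in cluster 3 (82.7 to 99.4%). The means were 20.3, 93.3 and 62.1 TPM, with a log2 ratio of 2.15 between clusters 1 and 2. Leaving out any single cell gave 2.07 to 2.51. It was 2.81 in CPM and 1.56 per spike-in. In clusters made from 2000 variable genes it was 0.33, below 1.5-fold. Those clusters hold 67, 34 and 37 cells, so their cluster 1 is a larger set of cells in every ratio given for them.

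Between clusters 2 and 3, Foxo3 had a ratio of -0.58, just short of 1.5-fold, and without any 1 of 52 single cells it passed that size, to -0.65 without the cell with 180.4 TPM. Per spike-in the sign of this step turned, to 0.41. The 10 cells with the highest Foxo3 were all in cluster 2, the largest cluster. Foxo3 was also the main gene of its family, with 75.95%, 92.7% and 92.3% of the summed mean TPM of Foxo1, Foxo3, Foxo4 and Foxo6 in clusters 1, 2 and 3. Foxo1 had means of 4.90, 6.62 and 4.71 TPM, and Foxo4 and Foxo6 stayed below 1.1 TPM in each cluster.

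Kit was at 1 TPM or more in 95.7% of cells and Foxo3 in 89.9%, so most cells would hold both from these shares alone. Their levels were at most weakly related. Both were at 1 TPM or more in all cells but 16, of which 10 had Kit alone, 2 Foxo3 alone and 4 neither. The cells with neither were all in cluster 1. Spearman's rho between the TPM of both genes was 0.12 over all cells and 0.03 over the 80 cells of cluster 2. In CPM, which are not divided by transcript length, it was 0.29 over all cells. Per spike-in it was 0.47, where both values of a cell share the same divisor.

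Pik3ca, the catalytic subunit p110 alpha, was low in all clusters. Its TPM ran from 0 through a median of 7.47 to 62.7 in cluster 1, from 0 through 2.49 to 64.5 in cluster 2, and from 0 through 2.45 to 27.7 in cluster 3. The clusters overlap almost fully. Means of 11.7, 7.72 and 4.36 TPM gave ratios of -0.55 and -0.70, the second past 1.5-fold. The first also passed it without any of 12 single cells, by -0.61 to -0.67. Without cell 47 (64.2 TPM) or cell 72 (64.5 TPM), the second ratio was -0.58 and no longer past it, and per spike-in it was 0.17. It was also short of it in CPM (-0.47), with means of log2 values (-0.18) and with Ward clusters (-0.25).

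Pik3cd, which encodes the p110 delta subunit best known from leukocytes, went the other way from Pik3ca. It reached 1 TPM in 0 of 19 cells of cluster 1 (exact interval 0 to 17.6%), 14 of 80 of cluster 2 and 33 of 39 of cluster 3. Its means were 0.071, 4.53 and 31.6 TPM, with medians of 0, 0 and 26.96 TPM. Of the summed mean TPM of the 4 class I catalytic genes, Pik3ca made up 69.6% in cluster 1 and 10.9% in cluster 3, while Pik3cd went from 0.418% to 79.3%. The ratio of Pik3cd between clusters 2 and 3 was 2.56. It was 2.35 in CPM, 3.67 per spike-in and 1.98 in clusters from variable genes. The other leukocyte-type subunit, Pik3cg, had means below 0.18 TPM in every cluster, and the leukocyte marker Tyrobp was at 0 in every cell. Ptprc, a marker of all leukocytes, had means of 0.31, 0.25 and 0.43 TPM with at least 1 TPM in 15 cells, and Cd52 reached 1 TPM in 4 cells, with a mean of 1.21 TPM in cluster 2 and 0 in the others. The part of such cells in the level of Pik3cd was not tested. Pik3cb stood at 5.05, 4.40 and 3.71 TPM.

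The regulatory subunits differed between clusters too. Pik3r3 (p55 gamma) fell from 83.9 to 37.4 and then 12.5 TPM, with ratios of -1.15 and -1.51, the second of which was -0.48 with clusters from variable genes. Pik3r1 (p85 alpha) went from 0.984 to 13.1 and 13.8 TPM, and it reached 1 TPM in 10.5%, 41.2% and 74.4% of the cells. Cell 66 held 480 TPM of Pik3r1, and without it the ratio of cluster 2 over cluster 1 was 2.05 in place of 2.83, and that of cluster 3 over cluster 2 was 0.85, past 1.5-fold, in place of 0.07. Without cell 50 of cluster 1 the first was 3.55. With clusters from variable genes the first was -0.06. Pik3r2 (p85 beta) had means of 13.02, 24.4 and 14.6 TPM, so all 3 were at similar levels in cluster 3. Inpp5d, a phosphatase of the PI3K product, rose from 1.82 TPM in cluster 2 to 11.8 TPM in cluster 3.

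**Figure D2:**
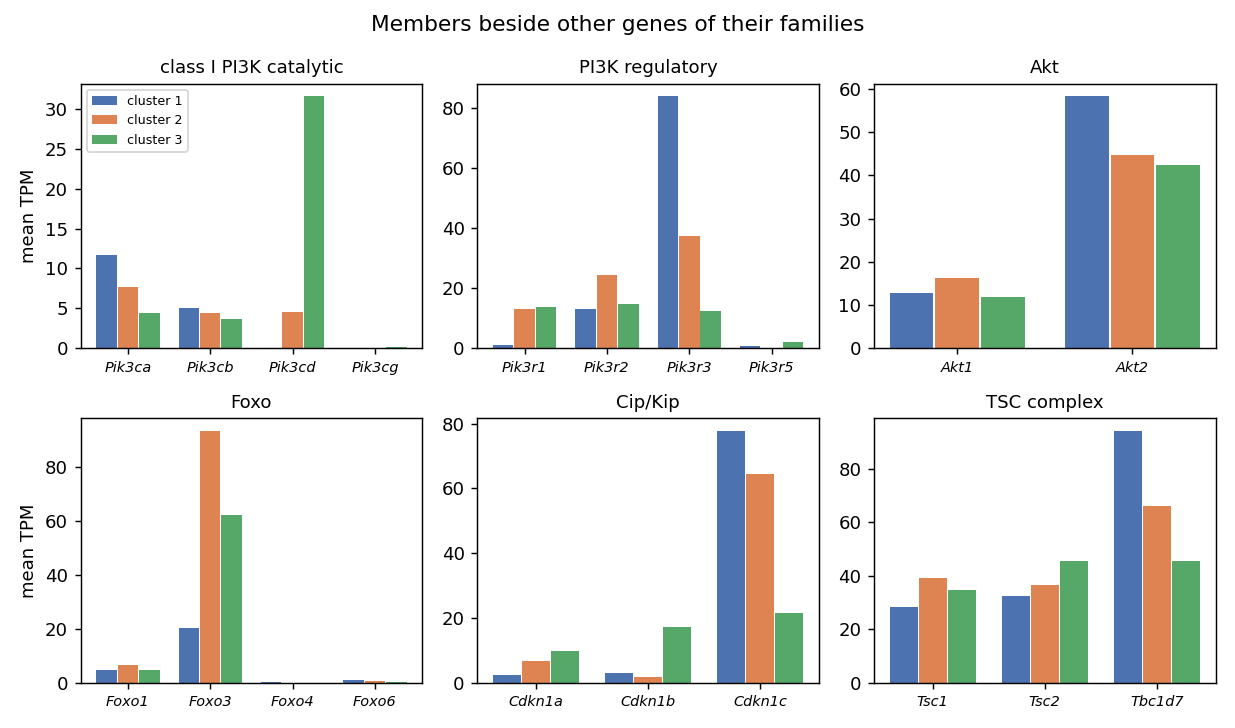
Mean TPM of genes of 6 families in clusters 1, 2 and 3 (bars, from 0). Pik3cd, at 31.6 TPM, exceeds the other catalytic subunits in cluster 3, Pik3r3 declines from 83.9 to 12.5 TPM, and Foxo3 exceeds the other Foxo genes in each cluster.

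Pdpk1, the kinase that activates Akt, was lower in cluster 3 than before. Pdpk1 ran from 0 through a median of 51.1 to 146 TPM in cluster 1, from 0 through 43.1 to 291 in cluster 2, and from 0 through 19.2 to 208 in cluster 3. Only 8 of 39 cells of cluster 3 were above the median of cluster 2. Means of 62.4, 54.2 and 28.7 TPM gave ratios of -0.20 and -0.89, and the second stayed past 1.5-fold without any single cell. The first was past it with means of log2 values (-0.95), in CPM (-0.64) and in reads per fixed length (-0.60). The second fell short of it with means of log2 values (-0.56) and in CPM (-0.19), and per spike-in it was 0.14.

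Akt1, the kinase that phosphorylates Foxo3 and Tsc2, had a lower mean than Akt2 in each cluster. Akt1 ran from 0 through a median of 0.73 to 50.98 TPM in cluster 1, from 0 through 3.83 to 108.3 in cluster 2, and from 0 through 9.90 to 52.3 in cluster 3. Medians thus increased in both steps, while the mean rose and then fell, at 12.7, 16.2 and 11.8 TPM. Neither ratio (0.33 and -0.43) was past 1.5-fold. Counted as separate libraries, the second ratio was -0.69, past 1.5-fold. Akt2 had means of 58.3, 44.6 and 42.5 TPM. Tcl1, a cofactor of Akt, rose from 7.03 to 110.1 and 168 TPM, with a first ratio of 3.79 that was 4.56 without cell 65 and 2.69 with clusters from variable genes.

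Tsc1 and Tsc2, whose proteins together inhibit the activator of Mtor, had no ratio past 1.5-fold between adjacent clusters. Tsc1 ran from 0 through a median of 24.7 to 91.2 TPM in cluster 1, from 0 through 31.2 to 181 in cluster 2, and from 0 through 22.0 to 219 in cluster 3. Tsc2 ran from 0 through 27.1 to 121.9, from 0 through 24.3 to 218, and from 0.96 through 39.1 to 157 TPM. The clusters overlap for both genes. The ratios were 0.44 and -0.17 for Tsc1 and 0.17 and 0.30 for Tsc2. With Ward clusters, those of Tsc1 were 0.73 and -0.76, both past 1.5-fold. The second ratio of Tsc2 was 0.93 with means of log2 values and 0.76 per spike-in, past it too, and -0.26 with clusters from variable genes. Without the cell of cluster 1 with 88.9 TPM or that with 91.2 TPM, the first ratio of Tsc1 was 0.61 or 0.62. Tbc1d7, the third protein of the complex, had 94.2, 66.1 and 45.6 TPM. Rheb, the GTPase they act on, had 318, 241 and 207 TPM.

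Mtor, the kinase of both mTOR complexes, was lowest in cluster 3. Mtor TPM ran from 0.009 through a median of 36.5 to 180.0 in cluster 1, from 0 through 38.1 to 392 in cluster 2, and from 0 through 7.72 to 102.1 in cluster 3. Of the 39 cells of cluster 3, 7 were above the median of cluster 2. The share of cells with at least 1 TPM changed little, from 84.2% and 80% to 74.4%, so the levels differ more than the shares. Means of 44.5, 48.03 and 17.97 TPM gave a ratio of 0.11 and then -1.37. The second ratio was -1.55 to -1.24 without any single cell, and 6.95% of the tested genes had a lower one. It was -1.13 in CPM and -1.53 with clusters from variable genes. Per spike-in it was -0.47, short of 1.5-fold, where the median of all tested genes moved from -0.19 to 0.54.

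Other parts of the mTOR complexes changed too. Rptor, which defines the first complex, rose from 8.34 to 23.6 TPM between clusters 1 and 2 and stood at 22.4 TPM in cluster 3. Rictor, of the second complex, had 135.2, 124.4 and 78.2 TPM, with a second ratio of -0.66. Deptor, an inhibitor of both, rose from 19.5 to 35.5 TPM between clusters 2 and 3 (0.83), though by 0.36 with clusters from variable genes, short of 1.5-fold. Eif4ebp1, a translation repressor that Mtor phosphorylates, rose from 47.2 to 277 TPM between clusters 1 and 2 and had 403 TPM in cluster 3. With clusters from variable genes the first-step ratios were smaller, at 1.05 in place of 2.53 for Eif4ebp1 and at 0.72 for Rptor.

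Cdkn1b, the inhibitor p27, was below 1 TPM in most cells of clusters 1 and 2 and above it in most cells of cluster 3. Its TPM ran from 0 through a median of 0.019 to 41.2 in cluster 1, from 0 through 0.036 to 50.2 in cluster 2, and from 0 through 16.2 to 50.5 in cluster 3. At least 1 TPM was found in 6 of 19 cells (31.6%, exact interval 12.6 to 56.6%), 21 of 80 (26.2%, 17.04 to 37.3%) and 34 of 39 (87.2%, 72.6 to 95.7%). With 4130741 reads, spike-in reads included, drawn from each cell, a Cdkn1b read was found in 47.4%, 43.8% and 92.3% of the cells of clusters 1, 2 and 3, against 57.9%, 52.5% and 92.3% before drawing. The means were 3.18, 1.66 and 17.3 TPM.

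The log2 ratio of Cdkn1b between clusters 2 and 3 was 2.79, and 99.3% of the tested genes had a lower one. It was 2.72 to 3.17 without any single cell and between 2.19 and 3.58 in every other setting tried. The ratio of cluster 2 over cluster 1 (-0.65) rests on cell 65 of cluster 1, with 41.2 TPM, since without it the ratio was 0.36. Without cell 50 it was -0.56, also short of 1.5-fold. It fell short too in CPM (-0.10), per fixed length (-0.06) and with means of log2 values (-0.25). Other clusters gave the same, at -0.32 for Ward clusters, -0.31 from variable genes, -0.54 with Kit and -0.55 with the cell below 1 TPM of Ddx4. Of the 52 cells with at least 1 TPM of Zp3, 39 also had Cdkn1b (75%), against 22 of the other 86 cells (25.6%). Zp3 is 1 of the 19 stage genes that made the clusters, so this is not separate from the difference between clusters. Spearman's rho of both genes was 0.56 over all cells, which share depth and library. Cdkn1b also correlated with the number of genes detected (0.43) and with spike-in TPM (-0.38), and the part of these in the result was not tested.

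Within the Cip/Kip family, Cdkn1b made up 3.82%, 2.28% and 35.6% of the summed mean TPM in clusters 1, 2 and 3. Cdkn1c (p57) was the most abundant member, at 77.7, 64.3 and 21.6 TPM, and fell between clusters 2 and 3 (-1.53) as Cdkn1b rose. Cdkn1c is also on the list of pregranulosa markers, and of the other 11 only Gata4 (1.28 TPM) and Kitl (1.07 TPM) had a mean of at least 1 TPM. Gata4 had means of 3.22, 1.32 and 0.26 TPM in the clusters, and the part of such cells in the level of Cdkn1c was not tested. Cdkn1a (p21) had 2.40, 6.62 and 9.70 TPM. Among the partners that these proteins inhibit, Ccne2 (cyclin E2) fell in both steps, from 223 to 75.1 and 20.2 TPM. Its second ratio of -1.84 was -1.03 with clusters from variable genes. Cdk4 also fell in both steps, from 278 to 154 and 47.9 TPM. Ccnd3 (cyclin D3) rose in both, from 16.9 to 27.8 and 51.4 TPM, though its first ratio of 0.68 was 0.54 without 1 cell of cluster 2 and its second (0.86) was 0.53 with clusters from variable genes.

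Between clusters 1 and 2, 2 of the 9 genes (Kit and Foxo3) were higher, where 24.7% of the 11756 tested genes were, and 1 (Cdkn1b) was lower, where 21% were. Between clusters 2 and 3, 1 gene (Cdkn1b) was higher, against 17.6% of the tested genes, and 3 (Mtor, Pdpk1 and Pik3ca) were lower, against 29%. In either direction, 45.7% and 46.6% of the tested genes passed 1.5-fold in the 2 steps, so the 9 genes passed no more often than genes at large. The median log2 ratio over the 9 genes was 0.17 and then -0.43, beside 0.01 and -0.19 over the tested genes. The largest were those of Foxo3 in the first step (4.44-fold) and Cdkn1b in the second (6.90-fold), each on mean TPM plus 1.

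**Figure D3:**
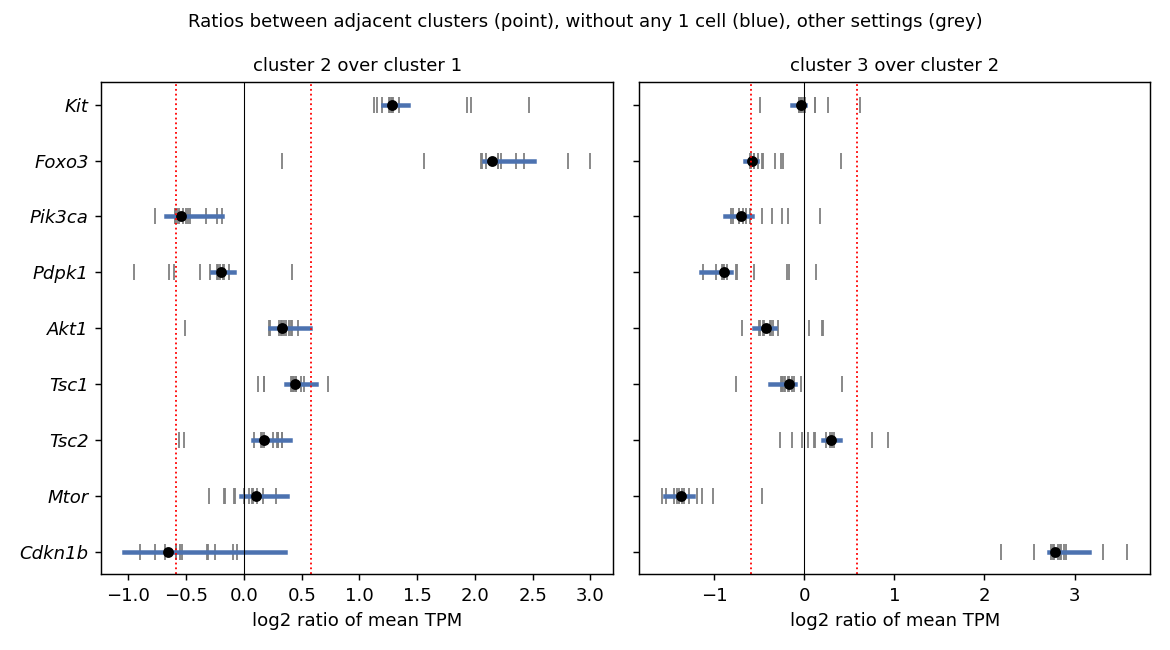
Log2 ratio of mean TPM (plus 1) of the 9 genes between adjacent clusters (black points), its range with any single cell left out (blue) and its values under other settings (grey ticks), with dotted lines at 1.5-fold. The ticks of Kit in the first step and Cdkn1b in the second all lie past the line, while those of most other genes fall on both sides of it.

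The cells were also placed in order along the first component of the 19 stage genes and split into 5 bins of 27 or 28 cells. Kit increased from a mean of 89.5 TPM in the first bin to 234 in the fourth and had 169 in the last. Foxo3 peaked earlier, with 110.3 TPM in the third bin and 70.7 in the last. Cdkn1b stood at 2.66, 0.734, 2.34, 5.37 and 20.9 TPM along the bins, and cells with at least 1 TPM numbered 8, 4, 7, 16 and 26.

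Mtor was highest in the second bin (66.6 TPM) and lowest in the last (12.8). Pdpk1 had 60.6 TPM in the first bin and 27.1 in the last, and the mean of Pik3ca went from 10.6 to 4.23, while its medians (6.06, 1.45, 1.37, 2.92 and 2.03) had no steady course. Akt1, Tsc1 and Tsc2 showed no common course, with rho against the order of 0.07, 0.003 and 0.12. Cdkn1b (0.58), Kit (0.31) and Mtor (-0.30) had the strongest relation to the order. An order from the 2000 most variable genes, which has a rho of 0.95 with the first, gave 0.52, 0.33 and -0.33. Kit thus peaked after Foxo3 and before Cdkn1b along both orders.

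**Figure D4:**
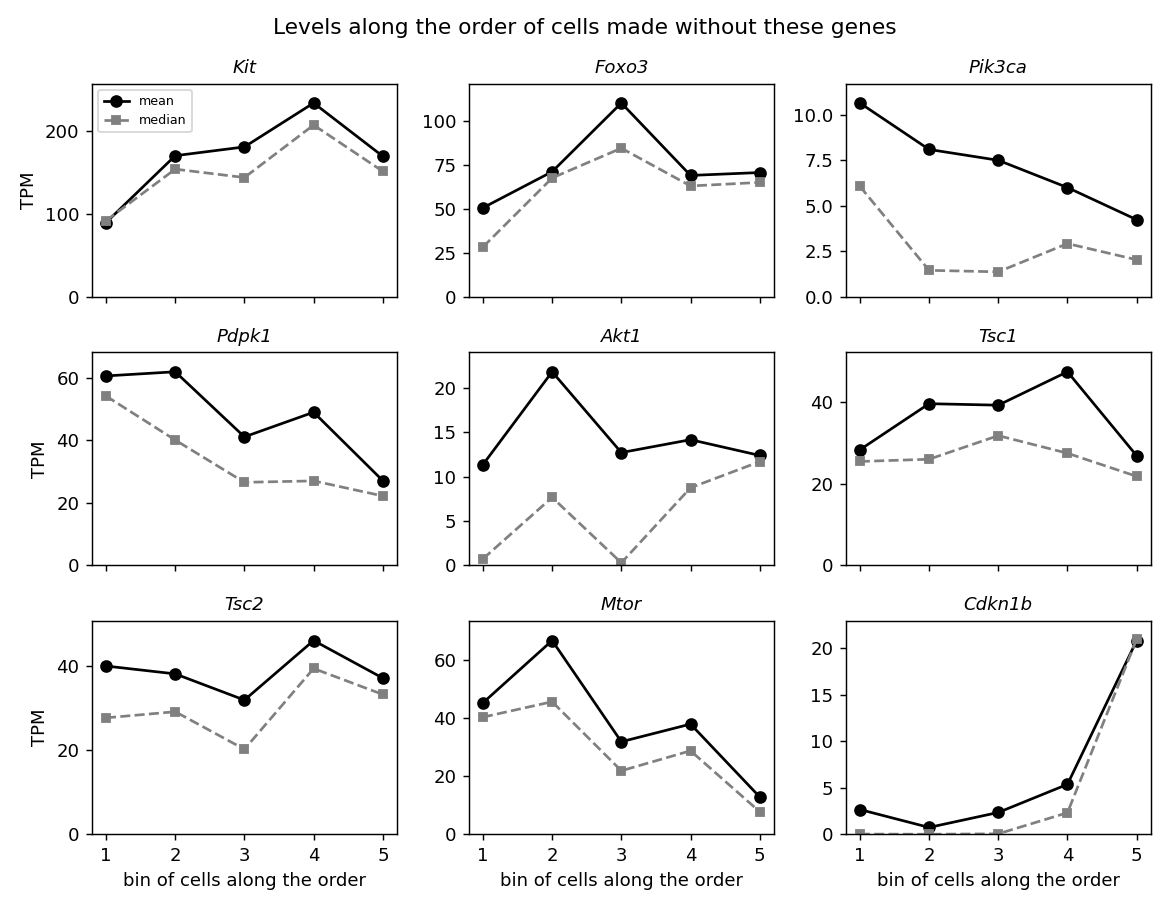
Mean (black) and median (grey) TPM of the 9 genes in 5 bins of 27 or 28 cells along the order made without these genes, each panel from 0 TPM. Foxo3 is highest in the third bin, Kit in the fourth and Cdkn1b in the last, while Mtor is highest in the second.

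Across cells the 9 genes were nearly unrelated. Over their 36 pairs, Spearman's rho had a median of 0.08 and ran from -0.24 (Mtor with Cdkn1b) to 0.28 (Pdpk1 with Akt1), and no pair reached 0.3. In CPM the median was 0.05, and within the 80 cells of cluster 2 it was 0.07 in TPM. Per spike-in it was 0.23, where the values of a cell share a divisor. In sparse counts such weak values are no finding.

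The genes most like Kit across all cells, among 7053 genes with a mean of at least 10 TPM, were Kdm1b (rho 0.58), Tdrd1 (0.58), Zbed3 (0.51), Stat3 (0.51) and Gdpd1 (0.51). Kdm1b, a histone demethylase of growing oocytes, had means of 29.1, 296 and 358 TPM in the clusters. For Foxo3 they were Sod2 (0.47), Sohlh1 (0.45), Grpel1 (0.44), Figla (0.43) and Prdx6 (0.43). Sod2 encodes the mitochondrial superoxide dismutase, and its means of 58.01, 121.1 and 66.8 TPM were highest in cluster 2, as were those of Foxo3, though per spike-in its ratio of cluster 3 over cluster 2 was 0.20. Sohlh1 and Figla, oocyte transcription factors, are among the 19 stage genes. For Cdkn1b the nearest gene was Lmna (0.62), of the nuclear lamina, with 10.7, 20.8 and 67.1 TPM. Pdpk1 was nearest to Phtf1 (0.48), Akt1 to Sbno2 (0.45), Pik3ca to Ddx27 (0.37), Tsc2 to Natd1 (0.37) and Tsc1 to Uggt1 (0.33).

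Around these genes, 156 genes of the pathway were listed by role. Of those with a mean of at least 1 TPM, 44 (33.1%) were higher and 19 (14.3%) lower in cluster 2 than in cluster 1, where 24.7% and 21% of all tested genes were. With clusters from variable genes the share higher in this step was below that of all tested genes (18.2%). Between clusters 2 and 3, 27 (20.3%) were higher and 38 (28.6%) lower, near the 17.6% and 29% of all tested genes. With means of log2 values and per spike-in, more were higher than lower in this step. So were all tested genes, with 24.8% higher and 16.1% lower, and 47.5% higher and 9.64% lower. The medians over all tested genes were 0.01 and -0.19. Outputs of mTORC1 had 6 of 11 genes higher in the first step and none lower, with a median of 0.71. Phosphoinositide phosphatases had 2 of 6 higher in the second step and none lower, with a median of 0.51. The mTOR complexes had 5 of 10 lower and 1 higher in that step, with a median of -0.54. Inhibitors and partners of cyclin-dependent kinases had 9 of 14 lower and 2 higher, with a median of -0.91.

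Of 17 adaptors and kinases next to Kit, 6 were higher and 2 lower in the first step, beside 24.7% and 21% of all tested genes. In the second step 2 were higher and 7 lower, beside 17.6% and 29%. The medians were 0.13 and -0.02. Fyn, a Src family kinase, rose from 17.5 to 46.5 TPM in the second step, and Lyn, another, went from 0.22 to 7.93 and back to 1.15 TPM. Foxo partners included Ywhaq, a 14-3-3 protein that binds phosphorylated Foxo3, at 907, 641 and 345 TPM, with a second ratio of -0.89 that was 0.13 per spike-in. Ywhag, of the same family, rose from 34.05 to 64.6 TPM in the second step. Among inputs from nutrients, Lamtor4 of the lysosomal Ragulator complex rose in both steps, from 29.3 to 82.7 and 178 TPM. With clusters from variable genes its first ratio was 0.80 in place of 1.46, and that of Lyn was 1.29 in place of 2.87.

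For each of these genes the median length behind its TPM over cells was below the longest coding transcript, to differing degrees. The mean effective length behind a TPM, which is the length that the estimated reads were divided by, was recovered from reads, TPM and spike-ins in cells with at least 10 reads of the gene. Its median was 1285 bases for Foxo3 over 125 cells, or 18.8% of its longest coding transcript (6848 bases). For Kit it was 3133 of 5241 bases (59.8%) and for Akt1 2263 of 2690 (84.1%). In 6 of the 9 genes the median was below 50% of the longest coding transcript. A short length raises TPM at a given number of reads, so the level of Foxo3 depends on it.

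The length also varied between cells of 1 gene. For Mtor it ran from 202 to 8703 bases and for Pdpk1 from 326 to 7191. The median for Kit was 2115 bases in the 14 cells of cluster 1, 3171 in cluster 2 and 3276 in cluster 3, and for Pdpk1 it was 1698, 1545 and 3237. Tsc2 went the other way, with 2702, 1862 and 1248 bases. Cdkn1b varied least between clusters, at 2004, 2024 and 2076 bases. In reads per kilobase of a fixed length, the ratio of cluster 3 over cluster 2 was -0.17 for Pdpk1, -1.01 for Mtor and 2.19 for Cdkn1b, and that of Kit in the first step was 1.93.

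**Figure D5:**
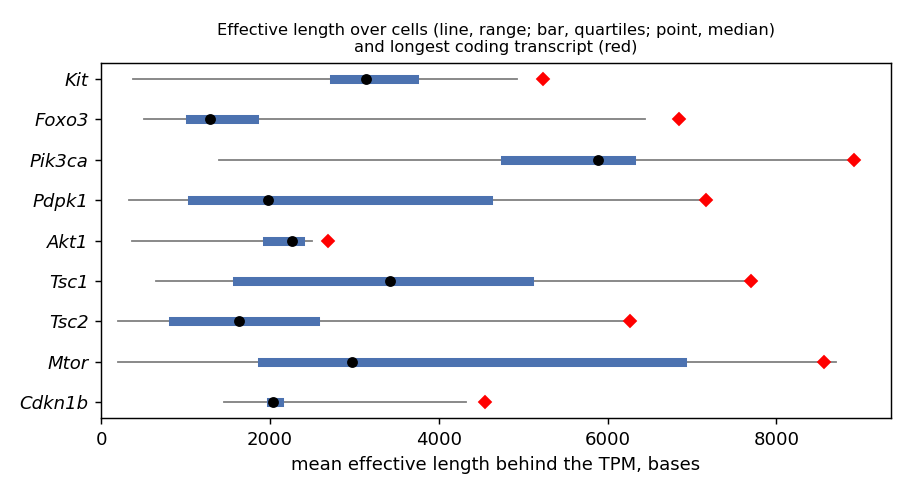
Mean effective length in bases behind the TPM of each gene over cells with at least 10 reads (line, range; bar, quartiles; point, median) and the longest coding transcript (red). The median of Foxo3, 1285 bases, lies far below its longest transcript of 6848 bases, and that of Akt1 lies close to its own.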

How the data were processed

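The 146 Smart-seq2 libraries of single picked cells were analysed. The authors quantified reads with Salmon against mm10 with spike-ins, and deposited TPM, estimated counts of reads and transcript lengths for 52605 gene symbols and 92 spike-ins per cell. The deposited TPM of a cell add up to 1000000 over all genes, and the estimated counts were left without normalization by the authors. The submitters' processing notes name Salmon and FastQC, and the study's methods give versions 0.10.0 and 0.11.8, with Salmon's correction for sequence bias.

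Coding genes (19779) are those with a coding symbol in GENCODE M21 or RefSeq, and 24296 unmatched symbols were dropped. Libraries with Pearson's r above 0.95 were averaged. Clusters were built in Seurat 5.3.0 (R 4.3.3) on 19 feature genes, from 20 neighbours on 10 components at resolution 0.2, the lowest to split them into 3. Of the 19 genes, 18 are those the study's text lists for its clusters, with Kit left out, and Taf4b, which that list does not hold, was carried over from an earlier analysis of these data. Since they were rebuilt, they may differ from those of the study. Doublets were not called, since cells were picked singly. Ratios are log2 of mean TPM plus 1, for genes with a mean of at least 1 TPM, and shares have exact (Clopper-Pearson) 95% intervals. Python 3.11.15, pandas 2.3.3, NumPy 2.4.6, SciPy 1.17.1 and matplotlib 3.10.9 were used. The calculation of ratios was checked on simulated data, which bears on the script alone. The deposited length of a gene with several transcripts was not the mean behind its TPM, so effective lengths were recovered as estimated reads divided by TPM, scaled with spike-ins, in place of the length first planned.

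The genes and lists were chosen with earlier results of these data known. Named beside the 9 genes are the 2 genes of a list with the largest ratio past 1.5-fold in each step and direction (given for some lists only), Kitl, Akt2 and Foxo1, the nearest genes by rho (5 for Kit and Foxo3, 1 for the others, of which that of Mtor is not reported here, among genes with at least 0.1 TPM in at least 50% of cells), and the leading markers. Genes outside that rule, chosen after their values were seen, are the other family members in the bar plot, Igf1r, Rictor, Rheb, Foxl2, Gata4, Pdgfra, Cpa3, Fcer1a, Hdc, Ptprc, Cd52 and Tyrobp. Other pseudocounts, scalings, clusters and single cells left out were tried. The clusters without Taf4b, the counting of each library, the fixed transcript length and the exclusion of globin-rich cells were added after seeing the data.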

Additional observations from a re-analysis of the deposited data

How the results depend on the processing

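No paired analysis was possible because the cells are 1 sample with no groups to pair. Under other settings, ratios of the 9 genes past 1.5-fold stayed past it in 78 cases, fell short of it in 17 and turned in sign in 3. The 3 were Cdkn1b between clusters 1 and 2 without cell 65 (0.36), and Pik3ca (0.17) and Pdpk1 (0.14) between clusters 2 and 3 per spike-in. Of those short of 1.5-fold, 16 passed it in the same direction, 23 turned in sign and stayed short of it, and 1, that of Kit between clusters 2 and 3 per spike-in (0.62), turned and passed it. For cluster 2 over cluster 1, 2 of the 9 genes were higher and 1 was lower. The number lower was 2 with a pseudocount of 0.1 TPM or per spike-in, where 22.9% and 29% of all tested genes were lower. It was 0 with Kit among the feature genes, with the cell below 1 TPM of Ddx4, or with clusters from 2000 variable genes. In these, 21.7%, 22.5% and 22.1% of all tested genes were lower. With clusters from variable genes 1 was higher, beside 18.2% of all tested genes. With means of log2 values, in CPM and per fixed length, the 1 lower was Pdpk1 and not Cdkn1b. Leaving out 1 cell gave 0 to 2 lower, and ratios of Cdkn1b from -1.03 to 0.36 in that step. For cluster 3 over cluster 2, 1 of the 9 genes was higher and 3 were lower. Means of log2 values gave 2 higher and 1 lower, beside 24.8% and 16.1% of all tested genes. CPM gave 1 lower, beside 24.9% of all tested genes, and reads per fixed length gave 1 lower. Scaling per spike-in gave 3 higher and 0 lower, beside 47.5% and 9.64% of all tested genes. In the pathway lists, log2 means gave 32 lower in the first step, and 44 higher and 20 lower in the second. With these means, 27.1% of all tested genes were lower in the first step, and 24.8% higher and 16.1% lower in the second. Per spike-in the lists had 30 lower in the first step, and 66 higher and 8 lower in the second. Of all tested genes, 29% were lower in the first step per spike-in, and 47.5% higher and 9.64% lower in the second. Clusters from variable genes gave 22 higher in the first step and 25 lower in the second, beside 18.2% and 28.1% of all tested genes. The median rho between the 9 genes was 0.23 per spike-in. Without Taf4b the clusters changed the call of 1 ratio, that of Foxo3 between clusters 2 and 3 (-0.60). Scaling per spike-in moves the median of all tested genes between clusters 2 and 3 from -0.19 to 0.54, so differences in that step are relative to the total RNA of a cell. The cause of the other shifts was not tested. With 1 litter and no named animal, the spread between animals is not known.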

Other observations

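Genes that Foxo factors are known to activate moved in both directions. Of 20 such genes with a mean of at least 1 TPM, 4 were higher and 6 lower in cluster 2 than in cluster 1, beside 24.7% and 21% of all tested genes. Between clusters 2 and 3, 8 were higher and 5 lower, beside 17.6% and 29%. The stress genes Gadd45a and Gadd45b rose in the first step, from 7.04 to 25.9 and from 4.84 to 19.1 TPM, while Sesn1, a sestrin that restrains mTORC1, fell from 23.2 to 4.50 TPM. The ratio of Gadd45a (1.74) was 2.85 without the cell of cluster 1 with 84.5 TPM, and that of Gadd45b (1.79) was 2.54 without the cell of cluster 1 with 47.6 TPM. With clusters from variable genes the ratios were 0.77 for Gadd45a, -0.34 for Gadd45b and -0.60 for Sesn1, in place of -2.14. Bcl2l11 (Bim), which promotes cell death, rose in the second step from 1.55 to 8.41 TPM beside Cdkn1b, and reached 1 TPM in 17.4% of the cells.

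The cell left out for lack of Ddx4, number 29, also had no read of Kit, Akt1 or Mtor. It held 82.4 TPM of Kitl and 11.5 TPM of Pdgfra, a stroma gene, and no Foxl2 read. In the cells kept, Kitl was at most 81.1 TPM. With 1408459 reads it was the shallowest library, and its Foxo3 level of 0.66 TPM is 1 read.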
